A study of Mus musculus with 7 samples.

Results

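The Dlk1-Dio3 miRNA cluster is the large group of miRNA hairpins that lies between the imprinted genes Dlk1 and Dio3 on mouse chromosome 12. Its members were taken by name, as every arm of 54 hairpins of the locus that had a row in the deposited count table. The table held 40 such mature miRNAs, from 30 of the hairpins, among 640 miRNAs in all (6.25%). The other 24 hairpins were not analysed here. The rule names hairpins and not levels, and the cluster was picked with earlier results of these data known.

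The counts came from Ago2 that was immunoprecipitated from plasma of adult male C57BL/6JOlaHsd mice, followed by small RNA sequencing. Ago2 is the Argonaute protein that carries mature miRNAs. Status epilepticus (SE) was evoked with 0.3 μg of kainic acid injected in the amygdala, with an anticonvulsant given afterwards, and control mice were given PBS by the same route. Each library was a pool of 500 μL of plasma, 50 μL from each of 10 mice, and there was 1 library for each of 7 conditions. Libraries were available from blood taken at 4, 8 or 24 h in both groups, and at 2 weeks in SE mice alone. For SE at 2 weeks the comparison was control 24 h, because the study's own control of that time did not pass quality control. A pool averages its mice, so the spread between animals could not be measured, and no difference between an SE and a control library had a replicate check. The content of plasma reflects release from many tissues, and a change in the number of releasing cells cannot be told apart from a change in the miRNA released by each.

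Imprinted genes are expressed from the maternal or the paternal copy alone. The miRNAs of this locus are made from the maternal copy, from long noncoding transcripts that include Meg3, Rian and Mirg, and the hairpins inside Rtl1 run antisense to that paternally expressed gene and can direct cleavage of its transcript. The miRNAs are abundant in embryo, placenta and adult brain, and the distal miR-379/410 group is induced by neuronal activity in cultured neurons. In brain they are known for control of dendrite growth and synapse strength, miR-134 being the best known.

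Mature sequences were found in RefSeq (GRCm38.p6) for 39 of the 40 members, and miR-485-5p is named only. The 39 miRNAs had 39 different seeds, the bases 2 to 8 that select targets, so no seed was shared by any pair of them. The sequences that the results turn on are given 5′ to 3′ with the seed in capitals. They are the most abundant member (miR-127-3p), the next most abundant (miR-434-3p), both arms of the miR-136 hairpin, the closely similar miR-300-3p and miR-381-3p, and the members whose acute SE libraries were all above the controls under TMM scaling (miR-411-5p and miR-541-5p).
miR-127-3p: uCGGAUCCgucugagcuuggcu
miR-434-3p: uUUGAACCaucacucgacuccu
miR-136-5p: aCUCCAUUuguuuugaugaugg
miR-136-3p: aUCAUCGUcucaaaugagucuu
miR-300-3p: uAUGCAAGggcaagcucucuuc
miR-381-3p: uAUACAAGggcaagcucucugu
miR-411-5p: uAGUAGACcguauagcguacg
miR-541-5p: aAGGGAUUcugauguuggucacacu

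All 39 placed members lay on the plus strand of chromosome 12 (GRCm38), between positions 109563710 and 109743784, a stretch of 180 kb. Dlk1 lies before them at 109452823 to 109463336 and Dio3 after them at 110279068 to 110281097. Following the order of the locus, 4 groups of hairpins were formed. The Meg3 side held 2 members (miR-770-5p in a Meg3 exon and miR-673-5p just after Meg3). The Rtl1-antisense group held 12 members, of which 9 lay in an Rtl1 exon on the opposite strand, including miR-127-3p at 109592888 to 109592909, and miR-337-3p, miR-540-3p and miR-665-3p lay beyond the end of Rtl1. The Rian side held 4 members in Rian introns, and the miR-379/410 group held 22, of which 10 with a position lay in Mirg, 4 of them in an exon.

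The cluster was a small part of the plasma Ago2 pool. Its members took 28702 of 23817231 counts (0.121%). In the control libraries they took 0.189% of counts at 4 h (95% Wilson interval 0.183 to 0.195), 0.0877% at 8 h (0.0847 to 0.0909) and 0.0265% at 24 h (0.0248 to 0.0283). In the SE libraries they took 0.153% at 4 h (0.149 to 0.156), 0.298% at 8 h (0.292 to 0.304), 0.0638% at 24 h (0.0613 to 0.0665) and 0.0310% at 2 weeks (0.0289 to 0.0332). SE 8 h was the highest of the 7 libraries and control 24 h the lowest, and the groups overlapped. As CPM, the count scaled to the library total, the highest control was 7.13-fold above the lowest control, and the highest SE library was 9.61-fold above the lowest SE library.

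The libraries held between 2043220 and 5405357 counts. Within each library the counts of rare miRNAs gathered around a single value, called here the low-count mode, which was 102 in control 4 h and between 33.1 and 60.2 in the other 6. Of the 123 member values above 0, 69 were under 2 modes. Reads without molecular identifiers are not independent molecules, so all intervals cover counting error only, and those from reads are narrower than those from counts divided by the mode. Control 4 h stood apart from the rest. It had the smallest total and the highest mode, and it shared with SE 24 h the largest part of counts in miR-486b-5p, a red cell miRNA (76.1% in both, against 62.5 to 67.5% elsewhere). Its low-count mode was equal to 50 CPM (102 counts), which was not so in the others, so a 0 in control 4 h excludes less than a 0 in another library.

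Against the control of the same time-point, the summed share of the cluster was 0.807 times as large in SE 4 h, 3.39 times in SE 8 h and 2.41 times in SE 24 h, and SE 2 weeks was 1.17 times control 24 h. On TMM-adjusted library sizes, used for the single miRNAs, the ratio at 24 h was 3.69. Intervals from counts divided by the mode were 0.572 to 1.14 at 4 h, 2.49 to 4.62 at 8 h, 1.38 to 4.19 at 24 h and 0.623 to 2.19 at 2 weeks. Those at 8 h and 24 h lay above 1, and they describe counting error within these pools and not the spread between pools. The direction depended on the control library. SE 8 h was above each of the 3 controls, at 1.57 times control 4 h and 11.2 times control 24 h. SE 4 h was 1.74 times control 8 h and 5.75 times control 24 h. SE 24 h was 0.338 times control 4 h and 0.728 times control 8 h, and SE 2 weeks was 0.164 and 0.353 times these.

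**Figure D1:**
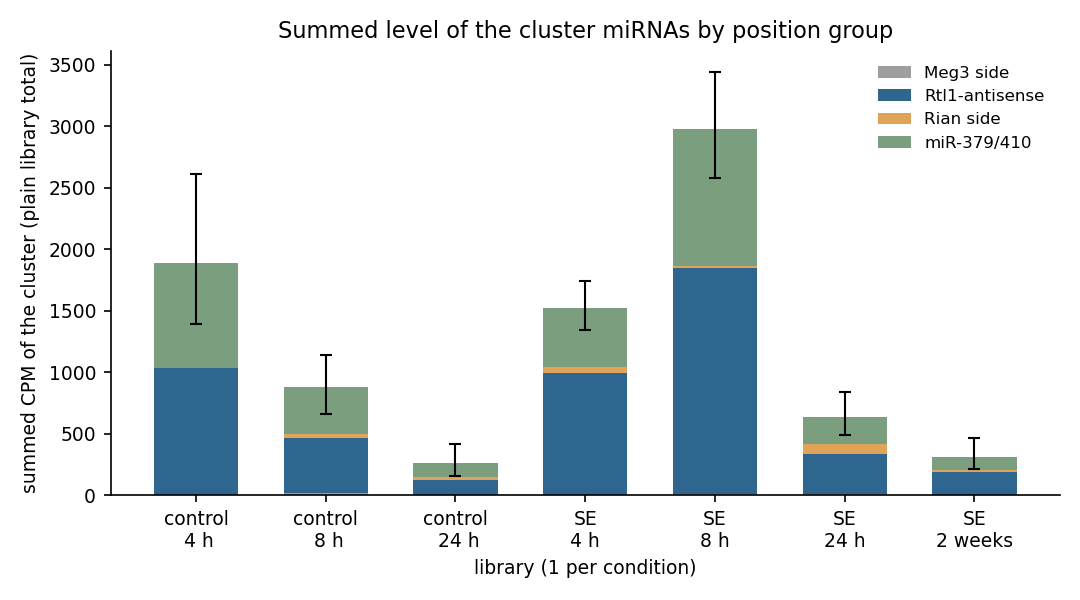
Summed CPM of the 40 cluster miRNAs (bar height, plain library total) in each of the 7 libraries, divided by position in the locus, with 95% intervals of the sum from counts divided by the low-count mode. SE 8 h stands at 2977 CPM, and the 3 control libraries run from 1890 at 4 h to 265 at 24 h.

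The Rtl1-antisense and miR-379/410 groups supplied most of the counts in every library. The Rtl1-antisense group stood at 1038, 448 and 122 CPM in the controls of 4, 8 and 24 h, and at 990, 1831, 323.3 and 190 CPM in SE at 4, 8 and 24 h and at 2 weeks. The miR-379/410 group, with 17 of its 39 hairpins in the table, stood at 853, 380.8 and 113 CPM in the controls and at 486.2, 1111, 218 and 101 CPM in SE. The Rtl1-antisense share of the cluster was 45.9 to 54.9% in controls and 50.6 to 64.9% in SE libraries, and these ranges overlap. The Rian side gave 0, 32.3 and 30.5 CPM in controls and 43.8, 21.8, 84.2 and 18.5 CPM in SE, and the Meg3 side never exceeded 15.9 CPM.

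Few of the members were abundant. At least 50 CPM in some library was reached by 13 of the 40 members and by 203 of all 640 miRNAs. These 13 held 91.2% of the cluster's counts, and 6 of them (miR-127-3p, miR-136-3p, miR-300-3p, miR-381-3p, miR-410-3p and miR-434-3p) were the only members counted in all 7 libraries. Their levels are given next as CPM on library sizes adjusted by trimmed mean of M-values (TMM), in order of time, first for the 3 controls and then for the 4 SE libraries.

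miR-127-3p, which is antisense to Rtl1, alone held 28.1% of the cluster's counts and between 18.7 and 35.9% in each library. Its level was 640, 137 and 43.8 CPM in the controls and 505, 929, 158 and 67.1 CPM in SE. SE 8 h was the highest library, and control 4 h was above 3 of the 4 SE libraries.

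miR-434-3p, from the next hairpin within Rtl1, stood at 401, 103 and 0.253 CPM in the controls and at 345, 285, 225 and 27.9 CPM in SE. The value of control 24 h was 1 count, against 630 counts in SE 24 h, and control 4 h was above every SE library. Its partner arm miR-434-5p stood at 64.8, 0 and 21.8 CPM in the controls and at 19.3, 15.1, 0 and 0 CPM in SE. Control 4 h was the highest library for the 5p arm as well.

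miR-136-3p, from the last hairpin antisense to Rtl1, stood at 46.5, 83.7 and 27.1 CPM in the controls and at 131, 163, 45.6 and 19.8 CPM in SE. SE at 4 h and 8 h was above all 3 controls, and SE 24 h and 2 weeks were not. Its 5p arm stood at 63.7, 17.2 and 12.2 CPM in the controls and at 82.4, 129, 0 and 22.0 CPM in SE, with the same 2 libraries highest.

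miR-540-3p, which lies between miR-337 and miR-665 before Rtl1, was counted in only 3 libraries. It stood at 0, 12.1 and 0 CPM in the controls and at 74.0, 26.9, 0 and 0 CPM in SE, where 74.0 CPM was 315 counts. Its 2 highest libraries were the earliest SE time-points.

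Among the miR-379/410 members, miR-381-3p and miR-300-3p form the closest pair of sequences in the cluster. The hairpin of miR-381 is a known substrate of adenosine-to-inosine RNA editing in brain. Aligned from the 5′ end, miR-300-3p differs from miR-381-3p at 3 of 22 bases, written with the base of miR-381-3p before and that of miR-300-3p after the position counted from the 5′ end: A4G in the seed, and G21U and U22C. The next closest pair among the members differed at 7 bases. The authors' alignment allowed 2 mismatches, so reads of either miRNA could be assigned to the other, and the split between them is uncertain.

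miR-381-3p stood at 605, 87.0 and 31.2 CPM in the controls and at 185, 87.3, 18.2 and 11.7 CPM in SE. Control 4 h was far above the other 6 libraries. miR-300-3p stood at 66.6, 42.9 and 0.253 CPM in the controls and at 108, 154.3, 39.6 and 29.8 CPM in SE, and its 2 highest libraries were SE 4 h and SE 8 h. The sum of both was 573, 159 and 36.3 CPM of the plain total in the controls and 231, 278, 43.6 and 50.4 CPM in SE.

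The share of miR-300-3p in the counts of the 2 miRNAs was 9.91% (95% Wilson interval 8.32 to 11.8), 33.0% (29.3 to 37.0) and 0.806% (0.143 to 4.43) in the controls of 4, 8 and 24 h. In SE it was 36.8% (34.1 to 39.5) at 4 h, 63.9% (60.6 to 67.0) at 8 h, 68.5% (61.0 to 75.2) at 24 h and 71.9% (63.5 to 78.9) at 2 weeks. The 4 SE libraries were all above the 3 controls, although the intervals of SE 4 h and control 8 h overlap. This share was chosen after the values were seen, and it has no test.

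**Figure D2:**
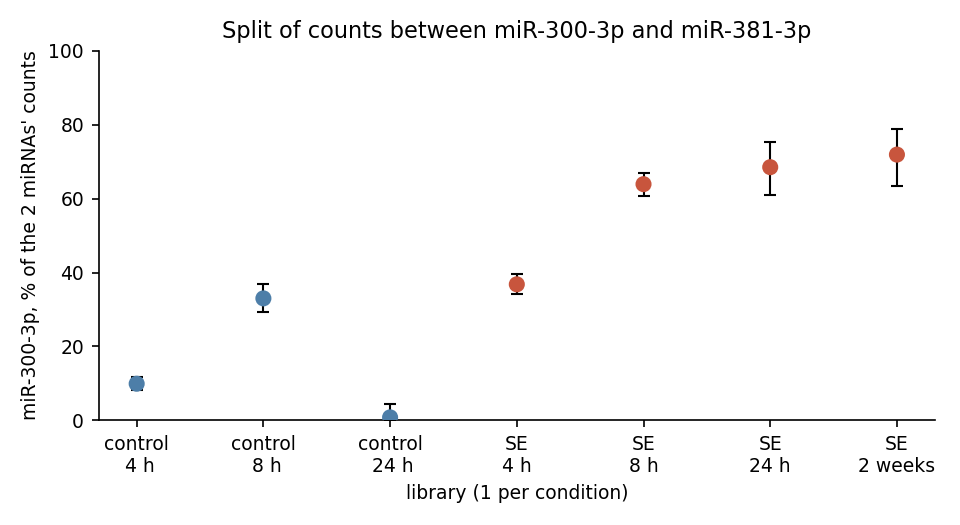
Percentage of miR-300-3p in the summed counts of miR-300-3p and miR-381-3p in each of the 7 libraries (points), with 95% Wilson intervals that cover read counting only. The controls lie between 0.806 and 33.0% and the SE libraries between 36.8 and 71.9%.

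miR-410-3p, the last hairpin of the group and in a Mirg exon, stood at 95.8, 98.8 and 13.2 CPM in the controls and at 119, 173, 48.5 and 12.3 CPM in SE. SE 4 h and SE 8 h were above all 3 controls, the former by a small margin. miR-409-3p, in a Mirg intron, stood at 131, 15.3 and 12.7 CPM in the controls and at 33.6, 70.0, 43.9 and 0 CPM in SE, so that control 4 h exceeded every other library.

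miR-411-5p, near the start of the miR-379/410 group, stood at 0, 15.5 and 0 CPM in the controls and at 45.3, 76.3, 20.7 and 11.0 CPM in SE. On this scale all 3 acute SE libraries (4, 8 and 24 h) were above all 3 controls, but on plain library totals SE 24 h (15.6 CPM) was below control 8 h (19.0 CPM). miR-541-5p, in a Mirg intron, stood at 0, 15.3 and 40.5 CPM in the controls and at 50.3, 243, 47.8 and 6.15 CPM in SE. The acute SE libraries were above all 3 controls on this scale, but on plain library totals SE 4 h (39.6 CPM) and SE 24 h (36.0 CPM) were below control 24 h (46.9 CPM). SE 2 weeks was below both detected controls.

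miR-341-3p, in a Rian intron, had another time course. It stood at 0, 26.4 and 13.7 CPM in the controls and at 48.6, 18.9, 78.5 and 15.2 CPM in SE, and SE 24 h was its highest library.

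**Figure D3:**
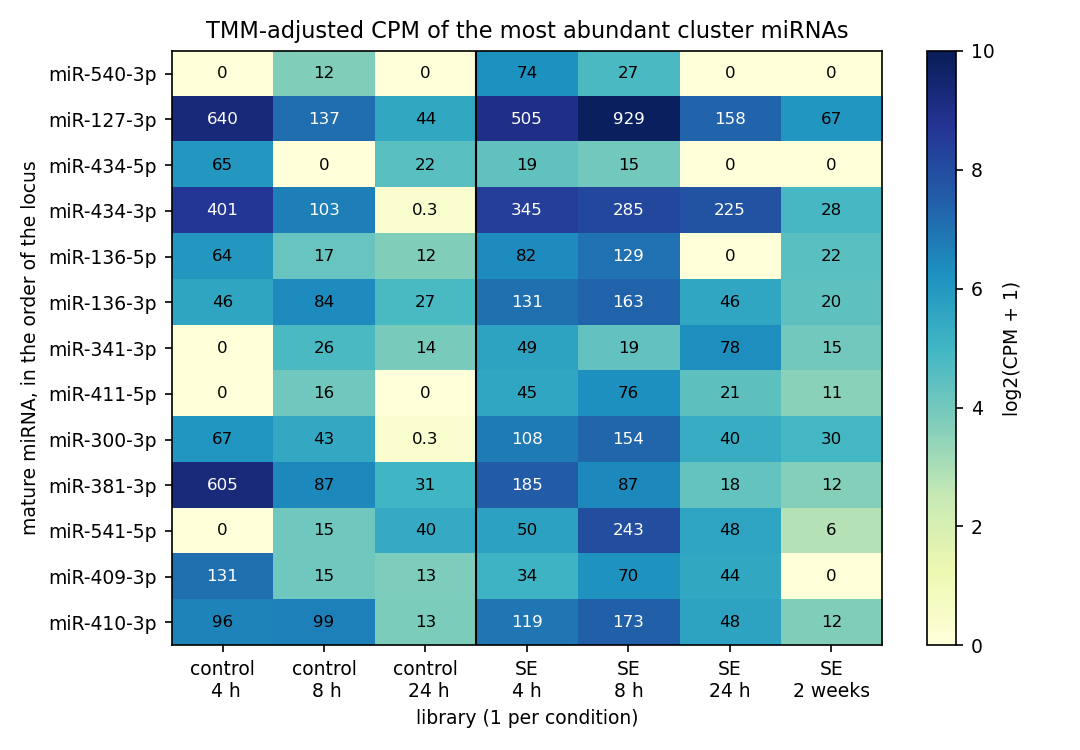
TMM-adjusted CPM (numbers in the cells, with colour on a log2 scale) of the 13 cluster miRNAs with at least 50 CPM in some library, in locus order, in the 3 control libraries left of the line and the 4 SE libraries right of it. SE 4 h and SE 8 h hold counts of all 13, and control 4 h holds the highest levels of miR-381-3p, miR-434-3p, miR-434-5p and miR-409-3p.

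The remaining 27 members stayed under 50 CPM everywhere, and their highest count was 185. Of these, 22 never reached a count of 2 modes. The 5 with the highest counts were miR-431-5p (0 in all controls, and 185, 124, 0 and 36 counts in SE), miR-666-5p (113 counts in SE 8 h alone), miR-127-5p (110 and 37 counts in SE 4 h and 8 h alone), miR-668-3p and miR-134-5p. miR-668-3p was counted at 8 h in both groups (41 in control, 72 in SE) and in SE 24 h (107 counts). miR-134-5p, which restrains dendritic spine size through Limk1 in neurons, had 99, 76 and 0 counts in the controls and 38, 88, 0 and 37 counts in SE, and the groups overlapped.

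The study listed 18 of the 40 members as enriched in brain or neurons, of which 9 reached 50 CPM in some library. Among the 9 that did not, 7 were counted in 1 library only. These were miR-154-5p (44 counts), miR-369-3p (59) and miR-376b-3p (81) in SE 8 h, miR-433-3p (45) and miR-485-5p (72) in SE 4 h, miR-369-5p (41) in SE 24 h and miR-337-3p (62) in control 8 h. Each was under 2 modes of its library. The other 15 members reached at most 97 counts (miR-485-3p in SE 4 h).

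More members were counted at all in the acute SE libraries than in the controls on average. A count above 0 was found for 12, 17 and 12 members in the controls and for 28, 24, 17 and 13 members in SE at 4, 8 and 24 h and at 2 weeks. At 50 CPM or more there were 8, 6 and 1 members in the controls and 8, 10, 3 and 1 in SE. The mean of the acute SE libraries was 23.0 members against 13.7 in the controls for any count, and 7 against 5 at 50 CPM, and each range overlapped. SE 4 h was the deepest library, and over all miRNAs it held 399 with a count against 232 to 340 in the other 6. The part of depth in the number detected was not tested.

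In all, 19 of the 40 members (47.5%) were counted in an acute SE library and in no control, against a background of 25.6% of all 640 miRNAs. The reverse held for 3 members (7.5%), against a background of 13.6%. Of the 19, 12 were counted in 1 library only, and none exceeded 185 counts, so most rest on a value near the low-count mode.

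**Figure D4:**
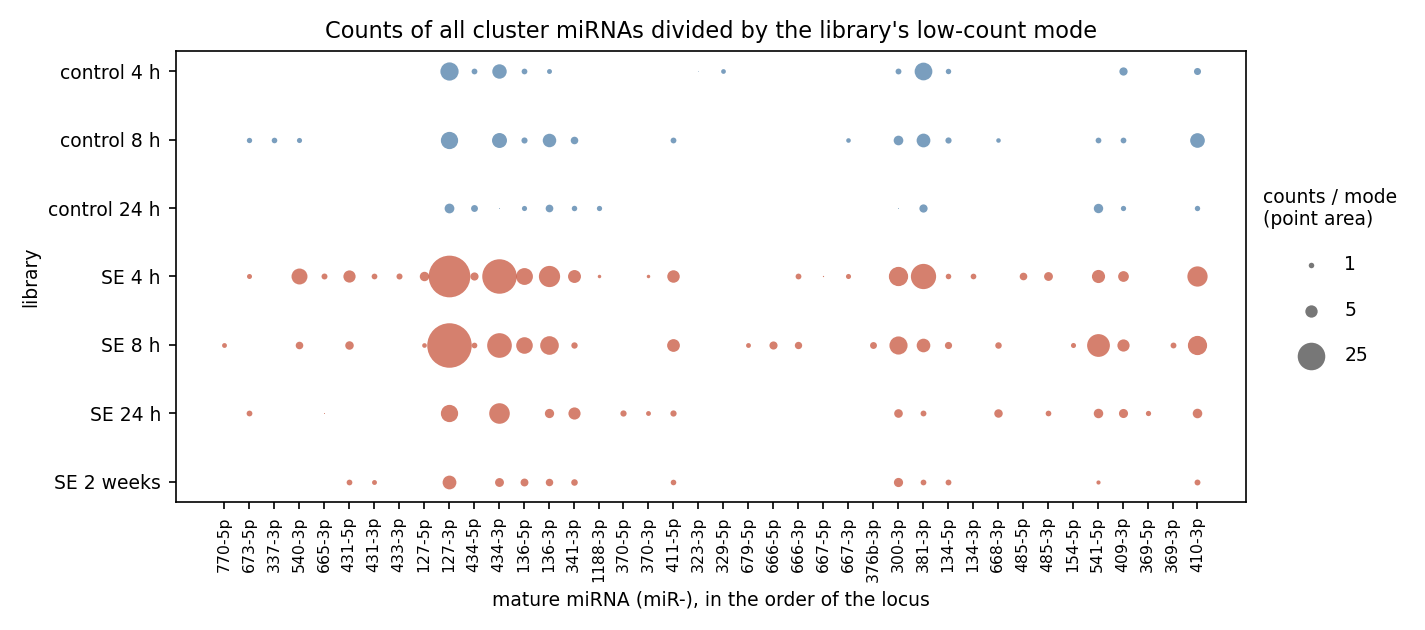
Counts of the 40 members divided by the library's low-count mode (point area) in the 3 control libraries (blue) and 4 SE libraries (red), in locus order. SE 4 h and SE 8 h hold 28 and 24 members against 12 to 17 in the controls, and 69 of the 123 values above 0 are under 2 modes.

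The exact test of edgeR was applied to pairs of libraries, with a fixed biological coefficient of variation (BCV) of 0.1. A miRNA was tested with at least 50 CPM in either library, and was called at an unadjusted p under 0.05 and at least a 1.5-fold change. Such a test compares 2 sets of reads and not the conditions. A member that reached 50 CPM in 1 library of a pair only had its direction favoured by the filter. The number of such members is given for the main SE comparisons and the control pairs. Where an SE library was set against another control, the numbers at 50 CPM in each library are given. The BCV estimated from the 3 control libraries themselves was 1.07, far above the value set. TMM kept the median of all miRNAs tested between -0.02 and 0.20 on the log2 scale in the 4 SE comparisons. Scaling by library size moved it to -0.64 at 24 h, where calls over all miRNAs went from 33 higher and 32 lower to 13 higher and 75 lower, and by 0.11 or less at the other time-points.

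At 4 h, calls among the members went both ways. Of 10 members tested, 3 were higher in SE (background 32.1% of 165 miRNAs) and 3 were lower (background 30.9%), and the median log2 fold change was 0.05, beside 0.06 over all miRNAs tested. Higher in SE were miR-136-3p (log2 fold change 1.49), miR-300-3p (0.70) and miR-540-3p, which was at least 43.0-fold higher against a floor of 3 counts in control 4 h. Lower were miR-381-3p (-1.71), miR-409-3p (-1.97) and miR-434-5p (-1.75). With the counts of miR-300-3p and miR-381-3p summed, their value was -1.20 and was called lower. The most abundant members, miR-127-3p (-0.34) and miR-434-3p (-0.22), were not called. Of the 10, 6 reached 50 CPM in both libraries, and 1 of these 6 was higher and 1 lower. The call on miR-300-3p ended under scaling by library size (0.58). The floor covers reads only, and the 315 counts of miR-540-3p in SE 4 h stand against a library whose low-count mode was 102. Set against control 8 h instead, SE 4 h had 7 of 8 members higher and 0 lower, where 55 of all 147 miRNAs were higher and 21 lower. Against control 24 h it had 8 of 8 higher, where 49 of all 151 miRNAs were higher and 39 lower. SE 4 h had 8 members at 50 CPM, control 8 h had 6 and control 24 h had 1. The filter thus favoured higher calls in both pairs, most of all against control 24 h.

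At 8 h the members were nearly all higher in SE. Of 10 tested, 9 were higher (background 34.8% of 164 miRNAs) and 0 lower (background 15.2%), and the median log2 fold change was 2.02, beside 0.20 over all miRNAs tested. Of the 10, 4 (miR-136-5p, miR-409-3p, miR-411-5p and miR-541-5p) reached 50 CPM in SE 8 h only, so the filter favoured their direction. With 50 CPM in both libraries, 5 of 6 members were higher and 0 lower, where 30 of all 124 miRNAs were higher and 15 lower, and the median was 1.21 beside 0.06. miR-541-5p, which was among those admitted through SE 8 h, had a log2 fold change of 3.99 (886 against 66 counts). From the hairpins antisense to Rtl1, miR-136-5p (2.91), miR-127-3p (2.76), miR-434-3p (1.47) and miR-136-3p (0.96) were higher. From the miR-379/410 group, miR-411-5p (2.29), miR-409-3p (2.19), miR-300-3p (1.85) and miR-410-3p (0.81) were higher as well. The exception was miR-381-3p (0.01), whose split from miR-300-3p is uncertain. With the counts of these 2 miRNAs summed, their value was 0.90 and was called higher. With the BCV of the controls, 0 of the 10 were called. Against control 24 h, 10 of 10 members tested were higher in SE 8 h, where 58 of all 167 miRNAs were higher and 48 lower. Against control 4 h, 6 of 11 were higher and 3 lower, where 54 of all 177 miRNAs were higher and 56 lower. SE 8 h had 10 members at 50 CPM, control 24 h had 1 and control 4 h had 8. The filter thus favoured higher calls against control 24 h, and the 10 of 10 there is no added support.

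At 24 h only 3 members passed the filter, and all 3 were higher in SE (background 22.9% of 144 miRNAs), with 0 lower (background 22.2%). They were miR-127-3p (1.85), miR-341-3p (2.52) and miR-434-3p. The last had 630 counts in SE 24 h and 1 count in control 24 h, a ratio of 887 with an exact 95% counting interval of 159 to 35070. miR-341-3p and miR-434-3p passed the filter through SE 24 h only, so the count of 3 is no measure of the cluster as a whole. Members under the filter had values on either side. miR-410-3p stood at 48.5 CPM in SE and 13.2 in control, whereas miR-136-5p had 0 and 48 counts and miR-434-5p 0 and 86 counts. The control counts of the latter 2 were 0.9 and 1.6 times the low-count mode of control 24 h. The calls depended on the control. Against control 4 h, 1 of 9 members was higher and 8 were lower, where 45 of all 164 miRNAs were higher and 64 lower. Against control 8 h, 2 of 7 were higher and 3 lower, where 35 of all 143 miRNAs were higher and 28 lower. SE 24 h had 3 members at 50 CPM, control 4 h had 8 and control 8 h had 6. The filter thus favoured lower calls for most members of these 2 pairs.

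At 2 weeks 1 member passed the filter, with 50 CPM in both libraries. miR-127-3p was higher in SE 2 weeks than in control 24 h (log2 fold change 0.61, 207 against 173 counts, backgrounds 19.2% higher and 14.1% lower of 156 miRNAs). The call was lost at a BCV of 0.4, and miR-127-3p was lower in SE 2 weeks than in either earlier control (-3.25 against control 4 h and -1.03 against control 8 h).

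Between control libraries the exact test called most members lower in the later control of each pair. From control 4 h to control 8 h, 1 of 9 members was higher (background 18.6%) and 7 were lower (background 37.7%), with a median log2 fold change of -1.96 beside -0.23 over all miRNAs tested. From control 4 h to control 24 h, 0 of 8 were higher (background 31.0%) and 8 were lower (background 36.8%), with a median of -3.62 beside -0.16. From control 8 h to control 24 h, 0 of 6 were higher (background 27.0%) and 6 lower (background 19.1%), with a median of -2.27 beside 0.15. The filter favoured this direction, since 3 of the 9, 7 of the 8 and 5 of the 6 members reached 50 CPM in the earlier control only. miR-127-3p, which reached it in all 3 controls, stood at 640, 137 and 43.8 CPM. The controls had received PBS in place of kainic acid, so this difference arose between pools that did not differ in SE. Time after injection, time of day and pool cannot be told apart in it.

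**Figure D5:**
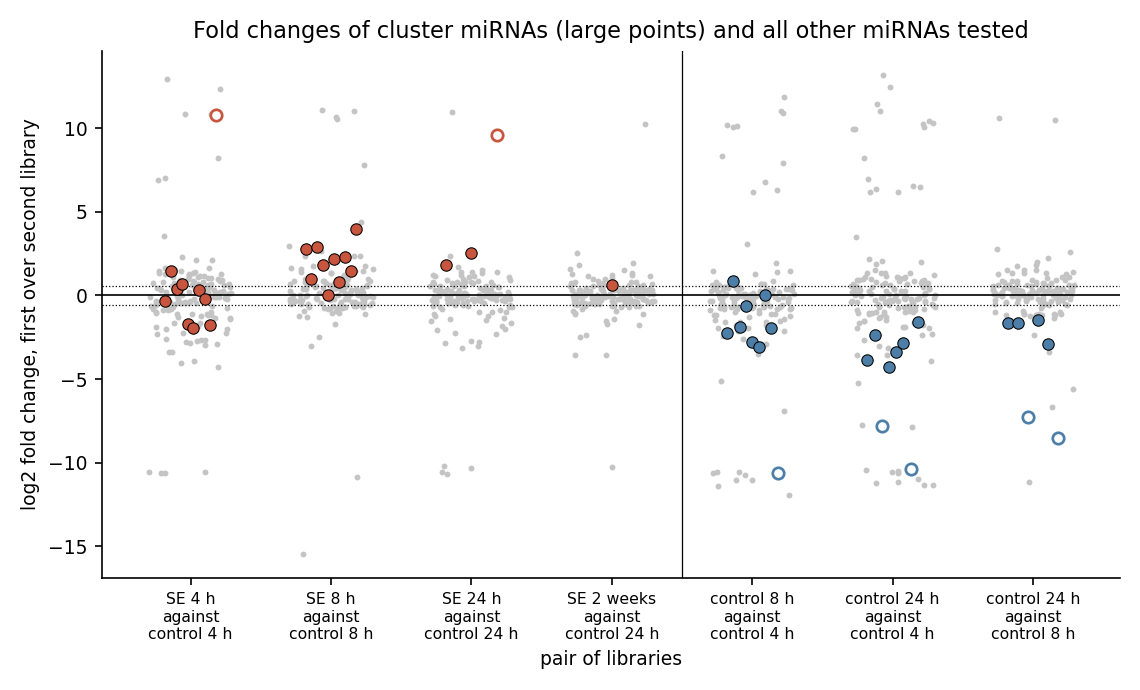
Log2 fold change of cluster miRNAs (large points, open where a library had 3 counts or fewer and the fitted value is no measured size) and of all other miRNAs tested (small grey points) in 7 pairs of libraries, with dotted lines at 1.5-fold. The medians of the members are 2.02 at 8 h and -1.96, -3.62 and -2.27 in the 3 pairs of controls, where 4 of 10, 3 of 9, 7 of 8 and 5 of 6 members reached 50 CPM only in SE 8 h or only in the earlier control of the pair.

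Over the 3 acute time-points together, no member was called. The 6 libraries of the acute time-points entered a quasi-likelihood test in edgeR with adjustment after Benjamini and Hochberg, 3 on each side, although libraries of different times are no replicates. Of 7 members tested, 0 were called, as were 0 of all 137 miRNAs (0%). At an unadjusted p under 0.05 there were 0 of the 7 members and 17 of the 137 miRNAs, and DESeq2 called 0 of the 7 members, with 1 miRNA higher and 3 lower among the 137. The estimate was positive for 6 of the 7 members, with a median log2 fold change of 0.96 beside 0.14 over all miRNAs tested.

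Among these 7, miR-300-3p had the largest estimate (1.46, adjusted p = 0.85 in edgeR), higher in SE at 3 of 3 time-points. miR-136-3p (1.11, adjusted p = 0.657 in edgeR) and miR-410-3p (0.72, adjusted p = 0.903 in edgeR) were also higher at 3 of 3 time-points. miR-127-3p (0.96, adjusted p = 0.85 in edgeR), miR-434-3p (0.77) and miR-136-5p (1.19) were higher at 2 of 3. miR-381-3p was lower on average (-1.31, adjusted p = 0.816 in edgeR), and this sign rested on control 4 h, without which the estimate was 0.72. The BCV of this fit was 0.57. With 3 libraries of different times on each side, a lack of calls does not show that the differences were small.

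Read without a model, 2 of the 13 members with at least 50 CPM in an acute or control library, miR-411-5p and miR-541-5p, had all 3 acute SE libraries above all 3 controls under TMM scaling (15.4%, background 10.7% of 197 miRNAs). That share is near the background, both miRNAs reached 50 CPM only in an SE library, and on plain library totals or with counts divided by the mode 0 of the 13 were above. For 0 of the 13 were all acute SE libraries below the controls (background 6.60%). Without control 4 h, 5 of the 13 were above (miR-127-3p, miR-409-3p and miR-434-3p in addition), where the share of all miRNAs rose to 18.3%. Without SE 24 h, 7 of the 13 were above, where that share was 22.3%.

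Both arms were counted for 10 hairpins, and each arm is a separate mature miRNA in Ago2. For miR-127, 98.2% of the counts of both arms were 3p, and for miR-434, 92.9%. The 3p arm of miR-434 held 86.1%, 100% and 1.15% in the controls and 94.7% or more in all of the SE libraries. Control 24 h was the exception, with 86 counts of the 5p arm and 1 of the 3p arm. For miR-134, 89.4% of counts were 5p, and for miR-431, 83.7%. The arms of miR-136 were closer, with 62.7% of counts in 3p. By library, the 3p share of miR-136 was 42.2%, 83.0% and 69.0% in the controls and 61.3%, 55.8%, 100% and 47.3% in SE, without separation of the groups.

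Other miRNAs that mark possible sources were summed in the same libraries. Neuronal miRNAs from outside the locus (10 of a list of 13 in the table) stood at 974, 1802 and 2644 CPM in the controls and at 1124, 1707, 1412 and 2393 CPM in SE. They ran from low to high over the 3 controls, where the cluster ran from high to low. Between 79.5 and 99.4% of that sum was miR-128-3p. Neuron-specific miR-124-3p had 49 counts in SE 24 h and 0 in the other 6 libraries. The 9 miRNAs other than miR-128-3p summed to 59.7, 53.0 and 15.8 CPM in the controls and to 74.6, 349, 78.8 and 20.5 CPM in SE. Their sum ran from high to low over the 3 controls and was highest in SE 8 h and lowest in control 24 h, as was the cluster. In SE 8 h 8 of the 9 were counted against 1 to 4 in the other libraries.

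Muscle miR-133a-3p, the 1 miRNA of a muscle list of 5 in the table, stood at 757.6, 969 and 87.3 CPM in the controls and at 869, 1655, 135.8 and 141 CPM in SE. It was highest in SE 8 h and lowest in control 24 h, as was the cluster. Liver miR-122-5p was at 0 in all 3 controls and had 59, 0, 1 and 55 counts in SE. The 6 red cell miRNAs took 62.9 to 76.5% of counts, nearly all of them miR-486b-5p, and this sum was highest in SE 24 h and control 4 h. In contrast, miR-144-3p (0 CPM), miR-144-5p (0.489), miR-451a (1.47) and miR-16-5p (3233) were each lowest in control 4 h. miR-486a-5p had 1 count in SE 24 h and none elsewhere. The 6 platelet and myeloid miRNAs took 0.503 to 1.44% and were lowest in control 4 h. The part of these other sources in the levels of the cluster was not tested.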

How the data were processed

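Small RNA bound to Ago2 was sequenced from 7 pools of mouse plasma, 1 library per condition. In Chimera, the authors removed adapters, kept reads of miRNA size and matched them by BLASTn to mouse miRBase (version 21) with at most 2 mismatches, and they deposited the raw count of reads per mature miRNA and library. The version of Chimera is not given in the sources used here. All 640 rows were used, and each sample column was matched to its GEO title.

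CPM, shares with 95% Wilson intervals and figures used Python 3.11.15, pandas 2.3.3, numpy 2.4.6, matplotlib 3.10.9 and scipy 1.17.1. TMM factors over all 7 libraries, the exact test at a BCV of 0.1 (prior count 0.125) and the quasi-likelihood test were from edgeR 4.0.16 (R 4.3.3, limma 3.58.1), and DESeq2 1.42.0 was an alternative. The quasi-likelihood test took miRNAs that reached 50 CPM in 3 or more of the 6 libraries. Tests were fitted over all miRNAs that passed the filter. Both were tried on simulated counts, the exact test at its own BCV of 0.1, below the 1.07 estimated from the controls. Those trials do not show how the tests perform on these libraries. The low-count mode was the peak of a kernel density (bandwidth 0.15) over ln counts between 6 and 300. The fixed BCV and the threshold of presence follow the study's methods. Lower bounds used a floor of 3 counts per library, 0.555 to 1.47 CPM.

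Positions and host genes were from RefSeq and GENCODE, both on GRCm38. The members and comparison lists were chosen with earlier results of these data known. Members with at least 50 CPM in some library were named with all values, and so were, with their counts, those that the study listed as enriched in brain or neurons and the 5 most abundant of the others. Alternatives were other scalings, BCVs, filters, tools and pooled controls, leaving out miR-486b-5p, and counts divided by the low-count mode. Other single control libraries, a filter on TMM-adjusted sizes, a sum of miR-300-3p and miR-381-3p, and non-overlap without each library were added after seeing the data. Quantitative PCR of the study was not analysed here.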

Additional observations from a re-analysis of the deposited data

Results flagged for a closer look

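miR-409-3p was called in opposite directions at neighbouring time-points, lower in SE 4 h than in control 4 h (log2 fold change -1.97, 143 against 229 counts) and higher in SE 8 h than in control 8 h (2.19, 255 against 66 counts). The difference between the time-points was not tested, since each time-point had 1 SE and 1 control library. Control 4 h held its highest level (131 TMM-adjusted CPM) and the other libraries held 0 to 70.0 CPM.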

How the results depend on the processing

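With 1 library per condition, depth and the choice of control set the limits: 50 CPM was 102 to 270 counts, and 22 of the 27 rarer members never reached 2 low-count modes. Calls among the members are given as higher and lower in SE. At 4 h they were 3 and 3, and became 1 higher at a BCV of 0.4, 1 and 0 at the BCV of the controls, 19 and 5 with any count, 1 and 1 with 50 CPM in both libraries, 7 and 0 against the pooled controls, 9 and 5 without miR-486b-5p, and 0 and 1 with counts divided by the mode. Against single other controls, chosen after seeing the data, they were 7 and 0 (control 8 h) and 8 and 0 (control 24 h). At 8 h they were 9 and 0, and became 0 higher at the BCV of the controls, 21 and 3 with any count, 5 higher with 50 CPM in both, 1 lower against the pooled controls, 15 and 1 without miR-486b-5p, 4 higher with counts divided by the mode, and 3 lower against control 4 h. At 24 h they were 3 and 0, and became 1 higher at the BCV of the controls, with 50 CPM in both and with counts divided by the mode, 14 and 4 with any count, 1 lower against the pooled controls, 12 and 2 without miR-486b-5p, 1 and 8 against control 4 h, and 3 lower against control 8 h. At 2 weeks the 1 higher call became 0 at either larger BCV, against the pooled controls (5 lower), with counts divided by the mode, and against control 4 h (8 lower) or 8 h (5 lower), and 8 and 5 with any count or 4 and 3 without miR-486b-5p. For SE 2 weeks, calls over all miRNAs were 48 and 61 of 171 against control 4 h and 40 and 27 of 153 against control 8 h. SE 2 weeks had 1 member at 50 CPM, control 4 h had 8 and control 8 h had 6, so the filter favoured lower calls. With another single control at the earlier time-points, the filter side given above applies. Over all miRNAs, calls with any count were 231 higher and 79 lower of 429 at 4 h, 155 and 102 of 424 at 8 h, 133 and 105 of 420 at 2 weeks and 135 and 126 in all at 24 h. Against the pooled controls they were 38 and 28 of 147, 52 and 38 of 164, 22 and 30 of 144 and 21 and 29 of 153, and with 50 CPM in both libraries 37 and 21 of 116, 30 and 15 of 124, 23 and 12 of 111 and 12 and 11 of 119. The members tested numbered 30, 27, 20 and 16 with any count and 18, 19, 15 and 9 without miR-486b-5p. Over all miRNAs, calls without miR-486b-5p were 96 and 77 of 234 at 4 h and 90 and 81 of 277 at 8 h. They were 93 and 81 of 273 at 24 h and 64 and 57 of 244 at 2 weeks. With counts divided by the mode, 22 and 9 of 165 were called at 4 h and 17 and 9 of 164 at 8 h. At 24 h and 2 weeks these were 8 and 10 of 144 and 11 and 3 of 156. At either larger BCV, 165, 164, 144 and 156 miRNAs were tested. Calls over these were 13 and 27, 21 and 4, 6 and 14, and 4 and 6 at a BCV of 0.4. At the BCV of the controls they were 8 and 4, 5 and 2, 2 and 4, and 1 and 1. Wider filters test more miRNAs, and the larger BCVs widen the error. Leaving out miR-486b-5p also widened the filter, since 50 CPM was then taken of a smaller total. The cause of the other changes was not tested. The members with SE above the controls fell from 2 to 0 with library size scaling and with counts divided by the mode, and ranged from 2 to 7 when each library was left out, with 0 to 1 below. With a library left out, 12.2 to 22.3% of all miRNAs were above and 8.63 to 15.7% below. The 1 member below was miR-434-5p without control 8 h, where 15.7% of all miRNAs were below. The quasi-likelihood test called 0 members in every setting run, 0 to 0 when a library was left out. With time-point as a replicate block it called 0 of 7, and miR-136-5p went to -0.03. miR-381-3p ranged from -2.19 to 0.72 when a library was left out, the former without SE 4 h and the latter without control 4 h. The ratio of summed shares without miR-486b-5p in the total was 0.595, 2.95 and 3.32 at 4, 8 and 24 h and 1.05 at 2 weeks. On TMM-adjusted sizes it was 0.874, 3.60 and 3.69 at 4, 8 and 24 h, and without miR-127-3p it was 2.69 at 8 h. The mean number of members detected was 2 higher in acute SE at 50 CPM, 6 at 10 CPM, 9.33 with any count and 8.00 with at least 2 modes. Of 398 values of single miRNAs, 25 changed sign. Of these, 4 were values of the exact test without a call in either setting. In the quasi-likelihood test, miR-136-5p (-0.03) and miR-381-3p (0.72), both given above, changed sign, also without a call in either setting. The others follow. Against pooled controls and controls 8 h and 24 h at 4 h, miR-127-3p went to 1.37, 1.88 and 3.53, miR-381-3p to 0.20, 1.09 and 2.57, and miR-434-3p to 1.54, 1.75 and 10.25, the last fitted to 1 count and no measured size. Against control 4 h at 8 h, miR-381-3p went to -2.79 (-0.88 against pooled controls), miR-409-3p to -0.91 and miR-434-3p to -0.49. At 24 h, miR-127-3p went to -0.30 (pooled) and -2.02 (control 4 h) and miR-434-3p to -0.84 (control 4 h). At 2 weeks, miR-127-3p went to -1.54 (pooled), -3.25 (control 4 h) and -1.03 (control 8 h). A further 40 values lost their call and 7 gained it.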
